A study of Mus musculus with 8 samples.

Results

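The regions described here had an ATAC-seq peak in mouse embryonic fibroblasts (MEFs) at day 10 of reprogramming. No other peak list of the study held a peak there. Peaks of the 4 lists (MEF, day 5, day 10 and embryonic stem cell, ESC) that lay within 400 bp of each other were merged, and a merged region was kept when it held a day 10 peak and no peak of the other 3 lists. This gave 3488 of 101701 merged regions (3.43%, 95% Wilson interval 3.32% to 3.54%), and 9.93% of the 35117 regions with a day 10 peak. Members were thus chosen by the presence or absence of peaks in all 4 lists, and their count and their strength at day 10 are descriptions and were not tested.

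The study assayed 8 libraries, 2 per group, and each list holds the peaks that both libraries of a group share. A region without a peak in a list can thus have had a peak in 1 library of that group. Signal too weak to be called would also be missing from a list. MEFs of strain C57BL/6J-OG2, which carry an Oct4-GFP reporter, were taken uninfected, or at day 5 or day 10 after infection with retroviruses for Oct4, Sox2, Klf4 and c-Myc (OSKM). A FLAG vector served as overexpression control in the infected cells, which grew in ESC medium with vitamin C. ESCs came from C57Bl6J in library 1 and C57BL/6J-OG2 in library 2, and all groups were labelled wild type, with no knockout. The labels put the ESCs on feeder layers, whereas the methods describe gelatin in an inhibitor medium with LIF, and the part of this in the ESC list was not tested. Infected cultures were assayed as whole populations, so a site open in few cells and a site weakly open in many cells cannot be told apart.

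ATAC-seq reads where a transposase can enter chromatin, which marks promoters, enhancers and insulator sites. In reprogramming, OCT4 and SOX2 can bind DNA on closed chromatin, KLF4 binds GC-rich sites at promoters and enhancers, and c-MYC binds E-boxes, mostly at promoters. AP-1 factors hold open many enhancers of fibroblasts, and CTCF binds insulators and loop anchors in most cell types. The fixed marker genes were checked first. The MEF list had a peak within 1 kb of a start site at 8 of 8 MEF markers and the ESC list at 8 of 8 ESC markers. The day 10 list had such peaks at 6 of 8 MEF markers, including Twist2, Prrx1 and Col1a1, at 3 of 8 ESC markers and at 3 of 6 epithelial markers, and the day 5 list at 6, 2 and 2 of them. The MEF list also had such peaks at 4 of 8 ESC markers and 3 of 6 epithelial markers, and the ESC list at 4 of 8 MEF markers and 5 of 6 epithelial markers. The pluripotency genes Nanog, Esrrb, Dppa5a, Dppa4 and Zfp42 had no day 10 peak within 1 kb.

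The sequences of 6 members are given on the forward strand of GRCm38, each as the 200 bp around the midpoint of its day 10 peak, the window searched for motifs. Capitals mark every match to a searched motif on either strand. The first holds the day 10 peak with the highest -log10 q of all members, where q is the false discovery rate of the peak caller, and the capitals are a CTCF match.
Gnai3, chr3:108147908-108148107: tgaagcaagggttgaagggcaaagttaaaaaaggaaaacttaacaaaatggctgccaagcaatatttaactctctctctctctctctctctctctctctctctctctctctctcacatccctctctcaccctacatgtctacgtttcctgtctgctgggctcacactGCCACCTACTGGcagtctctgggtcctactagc
The next lay within 1 kb of a protein-coding start site and was the strongest such member, with an AP-1 match followed by a KLF match.
Phactr1, chr13:42679431-42679630: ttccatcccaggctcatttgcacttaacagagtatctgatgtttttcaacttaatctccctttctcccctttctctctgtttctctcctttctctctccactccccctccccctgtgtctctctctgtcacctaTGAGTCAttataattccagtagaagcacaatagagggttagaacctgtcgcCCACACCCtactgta
The strongest members near listed pluripotency and Wnt genes follow. That near Klf2 holds 2 AP-1 matches and a FOX match, and that near Tcf7l1 an octamer match and a SOX match.
Klf2, chr8:72311060-72311259: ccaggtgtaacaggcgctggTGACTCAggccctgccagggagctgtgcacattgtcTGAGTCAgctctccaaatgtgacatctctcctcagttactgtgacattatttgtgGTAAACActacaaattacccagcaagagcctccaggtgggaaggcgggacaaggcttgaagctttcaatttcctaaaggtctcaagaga
Tcf7l1, chr6:72686836-72687035: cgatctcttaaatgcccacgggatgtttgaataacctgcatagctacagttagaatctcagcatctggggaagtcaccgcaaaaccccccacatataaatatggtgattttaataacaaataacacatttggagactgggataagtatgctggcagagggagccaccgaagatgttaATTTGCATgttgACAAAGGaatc
The strongest member near Foxp1, the gene with the most members, holds a KLF match.
Foxp1, chr6:99475294-99475493: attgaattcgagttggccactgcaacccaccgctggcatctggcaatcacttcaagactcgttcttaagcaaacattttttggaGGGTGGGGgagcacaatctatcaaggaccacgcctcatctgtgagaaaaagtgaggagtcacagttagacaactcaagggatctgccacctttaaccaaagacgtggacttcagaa
The last was chosen after the values were seen. The member near Bach2 was the strongest of 5 with a match to the composite SOX-OCT motif.
Bach2, chr4:32418622-32418821: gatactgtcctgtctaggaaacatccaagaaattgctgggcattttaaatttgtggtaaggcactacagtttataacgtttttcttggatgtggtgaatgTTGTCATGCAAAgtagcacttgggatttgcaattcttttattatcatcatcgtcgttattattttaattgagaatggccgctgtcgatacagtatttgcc

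The members were weak and narrow peaks of the day 10 list. Every peak name in that list carries a tag of library 1, so the strengths were taken as those of library 1, and a width is that of the part shared by both libraries' peaks. Their -log10 q ran from 1.02 to 11.5 with a median of 2.42 (quartiles 1.84 and 3.26), against a median of 3.81 for the 6968 regions with peaks on both days and in neither MEFs nor ESCs, and 2.53 for the 1273 regions shared by day 10 and ESCs alone. Their fold enrichment had a median of 2.99 (range 1.77 to 5.95). The median width was 400 bp (quartiles 306 and 548 bp), and 55 members were narrower than 100 bp. When all regions with a day 10 peak were ranked by -log10 q, members made up 29.2% of the weakest decile, 8.998% of the fifth and 0 of the 3511 regions in the strongest. Regions in all 4 lists ran the other way, from 8.46% to 90.3%. A total of 1123 members (32.2%) had a -log10 q below 2.

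**Figure D1:**
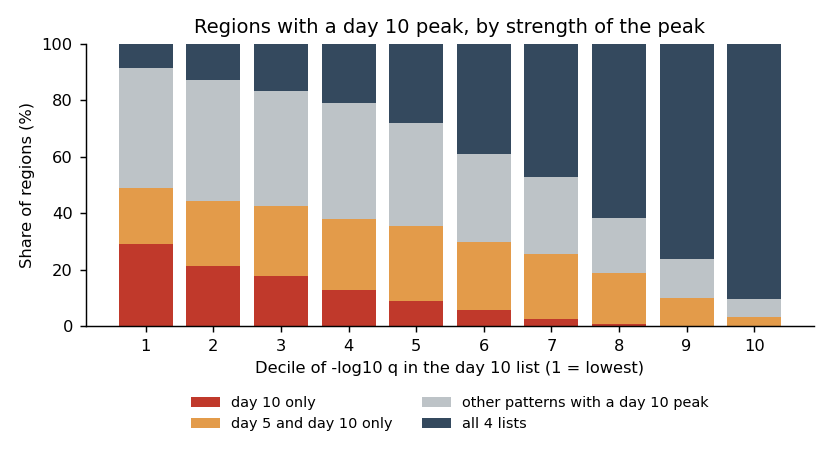
Share (%) of the regions with a day 10 peak that belong to each pattern, in deciles of -log10 q in the day 10 list (1 is the weakest). The red bars, members, shrink from 29.2% in the weakest decile to 0 in the strongest, while regions in all 4 lists grow from 8.46% to 90.3%.

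Members lay apart from other peaks by a few kb in most cases. The nearest peak of another list was a median of 6086 bp away (quartiles 2864 and 11914 bp), 5.02% of members had one within 1 kb and 69 members (1.98%) had none within 50 kb. It was a MEF peak for 50.6% of members, an ESC peak for 31.8% and a day 5 peak for 17.6%. The lengths of these lists ran in the same order, with 56514, 48486 and 36219 peaks, and the shares were not adjusted for them. Just inside the rule, 46 members lay 600 bp or less from another list's peak, the closest at 405 bp, with a median -log10 q of 2.20. Just outside it, 73 day 10 peaks were joined to another list's peak over a gap of 201 to 400 bp, with a median -log10 q of 2.25.

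The 10 members with the highest -log10 q mostly lay outside promoters. That at chr3:108147806-108148210, 1660 bp upstream of Gnai3, a gene for an inhibitory G protein subunit, had a -log10 q of 11.5 and a 3.76-fold enrichment. Its nearest MEF, day 5 and ESC peaks were 1207, 1258 and 1400 bp away. The highest fold enrichment, 5.95, belonged to the member at chr10:24312265-24312599, which had a -log10 q of 11.4 and lay 88720 bp from its nearest start site, that of Moxd1. No searched motif matched in its window, and its nearest day 5, MEF and ESC peaks were 41908, 54344 and 88580 bp away. Others among the strongest lay 14328 bp upstream of Adam23, a membrane protein of the ADAM family, with a -log10 q of 8.23, and 44916 bp upstream of a start site of Sema3a, a secreted guidance cue, with a -log10 q of 8.15. Members 33256 bp upstream of Ppm1l, a protein phosphatase gene, and 24349 bp upstream of Mgat4a, which branches N-glycans, had values of 8.64 and 8.11. The member near Erp27, a protein of the endoplasmic reticulum, had 9.47. For 3 of the 10 the nearest start site was that of a processed pseudogene (Rps4l-ps, Cox20b and Gm12736). By fold enrichment, members near Enpp1, an ectonucleotide pyrophosphatase gene (4.94-fold), Gm42888 (4.98-fold), Gm36971 (4.69-fold) and Gm25728 (4.68-fold) also ranked among the first 10.

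Members sat nearer to genes than regions found at day 5 only, and farther from start sites than those shared with ESCs. A member lay over an annotated start site in 4.24% of cases, against 0.944% of day 5 only regions, a difference of 3.30 percentage points (95% Newcombe interval 2.62 to 4.05). Regions on both days had 2.58% (difference 1.66, 0.922 to 2.46) and regions shared by day 10 and ESCs had 11.2% (difference -6.91, -8.86 to -5.14). Within 1 kb the share of members was 10.98%, against 4.20%, 6.49% and 17.0% in the same order and 21.3% of all regions. At 5 kb, where 36.6% of all regions qualified, the difference from day 5 only regions was 12.2 points (10.4 to 14.1) and had the same direction on 20 of 20 chromosomes with at least 50 regions of each class. That from regions on both days was 8.55 points (6.75 to 10.4; 19 of 20 chromosomes), and that from regions shared with ESCs was -5.87 points (-8.95 to -2.85; lower on 11 of 13). These intervals cover counting error only, since each group has a single list.

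**Figure D2:**
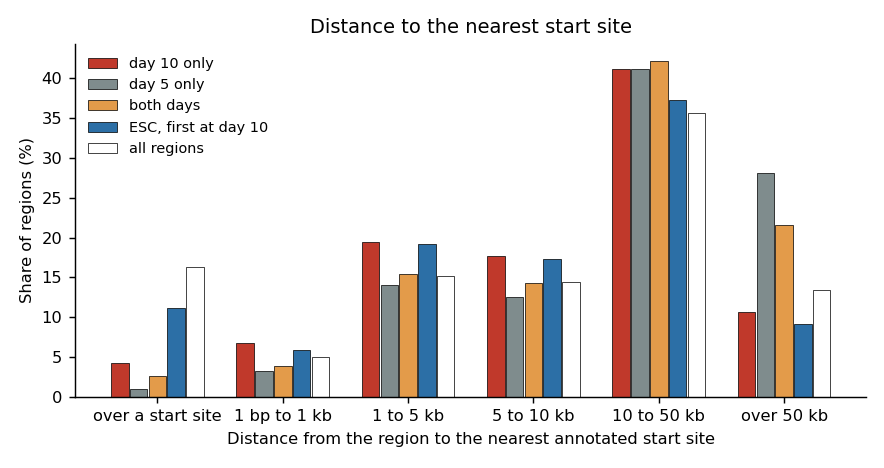
Share of regions (%) by distance to the nearest annotated start site, for the 4 classes and all 101701 regions. Members (red) exceed day 5 only regions (grey) in each bin up to 10 kb and fall below them beyond 50 kb, with 10.7% against 28.1%.

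Members were intronic more often than the other transient classes. The midpoint was intronic in 56.3% of members, exonic in 8.51% and intergenic in 35.2%, against 46.9%, 12.4% and 40.8% of all regions. Day 5 only regions were intronic in 44.1% (difference 12.1 points, 10.02 to 14.2) and regions shared with ESCs in 48.3% (difference 7.94, 4.73 to 11.1). Regions on both days were intronic in 52.4% (difference 3.88, 1.86 to 5.90). Of the 383 members within 1 kb of a start site, the nearest was protein-coding for 63.2% (58.2% to 67.9%), against 50.6% (44.4% to 56.8%) of the 249 such day 5 only regions. It was that of a processed pseudogene for 3.66% (2.19% to 6.04%), against 12.4% (8.91% to 17.1%).

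Promoter members were few and belonged to genes of varied function. Of 21938 protein-coding genes, 252 (1.15%) had a member within 1 kb of a start site. The strongest such member lay 846 bp upstream of a start site of Phactr1, a phosphatase and actin regulator, with a -log10 q of 7.16. Its nearest day 5, MEF and ESC peaks were 23445, 69529 and 70034 bp away. The member over a start site of Plekha6, a pleckstrin-homology protein of cell junctions, had 5.96, and that 742 bp downstream of a start site of Cacna2d2, a calcium channel subunit, had 5.80. Next came Btbd10 (-log10 q of 5.77), the Ral exchange factor gene Ralgps1 (5.64), the microtubule-binding Mtcl1 (5.63), Lrp2bp (5.39), Nat8f4 (5.36), Polr2e, a subunit shared by the nuclear RNA polymerases (5.29), and Sema4d, a membrane semaphorin (5.21). Those at Plekha6, Ralgps1, Lrp2bp, Nat8f4 and Polr2e lay over an annotated start site. The member at Polr2e was 1525 bp from the nearest MEF peak, while that at Btbd10 was 21093 bp from the nearest peak of another list, also a MEF peak.

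The 5 widest members were no stronger than many narrow ones. The widest, 2376 bp, lay 2931 bp upstream of a start site of Actn4, an actin crosslinker, with a -log10 q of 2.53. Those near Lncppara, Mir6384 and Gm20149 were 1841, 1829 and 1805 bp wide and had a -log10 q of 1.50, 4.87 and 2.18. The member at Cacna2d2 named above was the next, at 1804 bp.

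Members had a base composition between that of day 5 only regions and that of regions shared with ESCs. The mean GC content of their 200 bp windows was 45.8% (SD 7.90, n = 3488 windows), against 38.1% (SD 6.86) at day 5 only, 41.1% (SD 7.17) on both days and 48.5% (SD 7.60) in regions shared with ESCs. A GC content of at least 50% was found in 29.96% of members, against 36.5% of all regions. The share was 24.2 points above day 5 only regions (22.6 to 25.8), 17.7 above regions on both days (16.0 to 19.4), and differed by -11.0 points from regions shared with ESCs (-14.2 to -7.96). Beyond 5 kb from a start site the mean GC content of members was 44.7%, near the 44.6% of all such regions, against 37.7% of day 5 only regions. Over all regions of each list the mean was 51.96% at day 10 and 49.9% at day 5.

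CpG-island-like windows, with over 50% GC and an observed to expected CpG ratio over 0.6, were rare among members. They made up 1.66%, against 11.2% of all regions, 0.219% of day 5 only regions (difference 1.44 points, 1.04 to 1.93) and 4.08% of regions shared with ESCs (difference -2.42, -3.71 to -1.35). Windows made up of soft-masked repeats to at least 50% were 6.11% of members, against 9.96% of all regions, 11.4% at day 5 only (difference -5.29, -6.41 to -4.14) and 12.6% in regions shared with ESCs (difference -6.46, -8.54 to -4.56). Regions on both days had 6.96% (difference -0.854, -1.83 to 0.167, which includes 0).

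Motif matches were counted as exact words on both strands in these windows and in flanking windows 1 kb to each side. The words were ATGCAAAT for the octamer of OCT4, CCATTGT or CCTTTGT for SOX, CCACGCCC, CCACACCC, CCCCGCCC or CCCCACCC for KLF, TGACTCA for AP-1 and CACGTG for the E-box, and the composite SOX-OCT word overlaps the octamer. For 19 motifs in 3 comparisons, 57 intervals of difference were computed and not adjusted for their number.

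Octamer, SOX and KLF words were more frequent at members than beside them, as in the other classes. The octamer lay in 154 member windows (4.42%, 3.78% to 5.15%), against 1.23% of their flanks and 2.19% of all regions. SOX words lay in 458 (13.1%, 12.1% to 14.3%; flanks 7.37%, all regions 10.1%) and KLF words in 496 (14.2%, 13.1% to 15.4%; flanks 5.89%, all regions 11.1%). At least 1 of these lay in 1025 member windows (29.4%), and at least 2 in 81 (2.32%), against 22.0% and 1.32% of all regions. The other classes had similar shares, with 26.2% and 1.74% at day 5 only and 29.2% and 2.68% on both days. Regions shared with ESCs had 29.9% and 3.38%. The E-box was about as frequent in members (3.18%) as in their flanks (3.05%; all regions 2.93%). A word for ESRRB, an orphan nuclear receptor of naive pluripotency, lay in only 7 windows (0.201%, 0.0972% to 0.414%), below its share of all regions (0.681%). Its share was also low at day 5 only (0.219%) and on both days (0.115%), against 0.79% in regions shared with ESCs. None of the searched words matched in 48.8% of members and 46.6% of all regions.

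Over windows of any GC content, the octamer share did not separate members from the other transient classes, whereas AP-1, SOX and KLF words did. Octamer shares were 3.84% at day 5 only (difference 0.572 points, -0.247 to 1.44), 4.18% on both days (0.239, -0.565 to 1.10) and 4.01% in regions shared with ESCs (0.409, -0.968 to 1.61). The AP-1 word was found in 144 members, hardly more often than in their flanks (3.38%), while 11.4% of all regions held it. Its share was 4.91 points lower than at day 5 only (difference -4.91, -5.88 to -3.90; lower on 19 of 20 chromosomes) and differed by -1.97 points from regions on both days (-2.82 to -1.08). Against regions shared with ESCs the difference of 0.279 points had an interval from -1.07 to 1.45. SOX words were less frequent in members than at day 5 only (15.9%; difference -2.81, -4.26 to -1.34) and on both days (16.1%; difference -3.01, -4.41 to -1.58).

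The KLF difference moved with base composition. KLF words, which are GC-rich, lay in 6.01 points more of the members than of day 5 only regions (4.68 to 7.39) and in 2.64 points more than of regions on both days (1.28 to 4.04). Among windows of 40% to 50% GC alone, these differences were -2.04 points (-4.26 to 0.188) and -2.58 points (-4.55 to -0.526), so the direction turned. In the same windows AP-1 words remained less frequent in members than at day 5 only (-4.91, -6.66 to -3.16), and the octamer was more frequent (1.95, 0.772 to 3.19). The ratio of window to flank share for KLF was 2.41 in members and 2.43 at day 5 only.

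**Figure D3:**
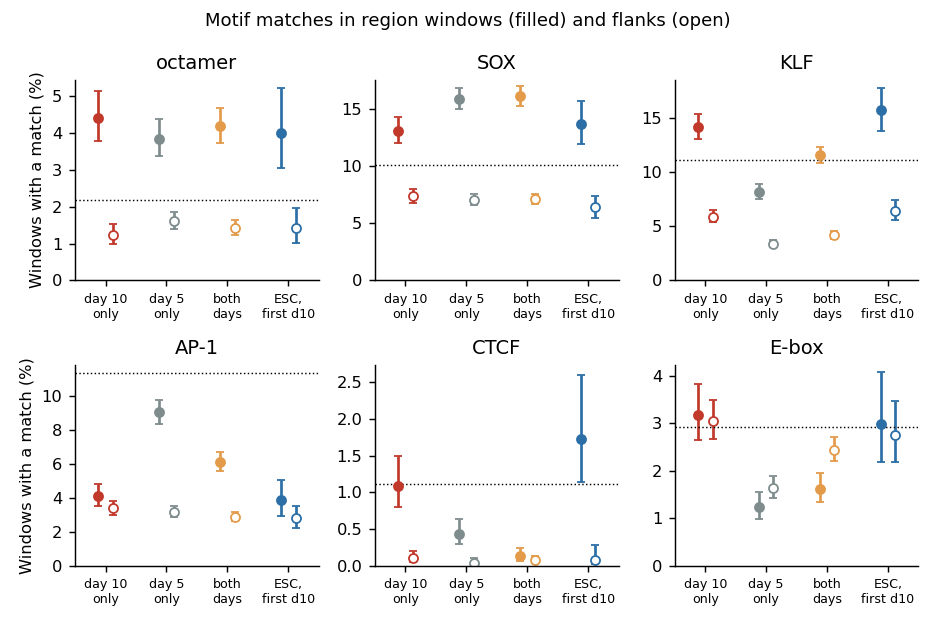
Share (%) of 200 bp windows with a match (filled points) and of the flanking windows 1 kb away (open points), with 95% Wilson intervals, for 6 motifs in 4 classes. Dotted lines mark the share over all 101701 regions. In members (red), octamer, SOX, KLF and CTCF shares stand above their flanks, and AP-1 and E-box shares lie close to them.

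The remaining words lay in member windows at shares below or near those of all regions. The Wilson intervals of members held the share of all regions for FOX (3.47% of members, 2.91% to 4.13%, and 2.96% of all regions), RFX (0.860%, 0.603% to 1.23%, and 0.608%) and the composite SOX-OCT word (0.143%, 0.0612% to 0.335%, and 0.0846%, in 5 members). They also held it for RUNX (2.61%, 2.13% to 3.19%, and 3.11%), GATA (2.24% and 2.21%), GRHL (1.46% and 1.46%) and TCF (2.01% and 2.21%). TEAD (4.30% and 6.83%), TFAP2 (5.68% and 7.19%), NFY (3.90% and 4.76%), ETS (0.258% and 0.581%) and NRF1 (0.0573% and 0.563%) stood below. Against day 5 only regions, TFAP2 words were 3.67 points more frequent (2.85 to 4.55), and 1.57 points (0.343 to 2.84) among windows of 40% to 50% GC. E-box words were 1.95 points more frequent (1.33 to 2.64), and 1.36 points (0.386 to 2.41) in those windows.

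CTCF matches were uncommon, and more frequent at members than beside them, as over all regions. A CTCF match lay in 38 member windows (1.09%, 0.795% to 1.49%; all regions 1.12%), against 7 of 6976 flanks (0.100%). The ratio of window to flank share was 10.9 in members, 10.4 at day 5 only and 10.4 over all regions. It was 1.80 on both days and 22.0 in regions shared with ESCs, with few matching flanks in each class (10 and 2). The share in member windows was 0.651 points above day 5 only regions (0.293 to 1.08), although among windows of 40% to 50% GC the interval included 0 (0.212, -0.416 to 0.884). It was 0.960 points above regions on both days (0.644 to 1.37), where 0.129% held a match, and differed by -0.639 points from regions shared with ESCs (-1.56 to 0.0706). Besides the member upstream of Gnai3, it matched in 2 of the 13 members of the stretch on chromosome 6 described below for Foxp1.

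Octamer, SOX and KLF matches gathered at the midpoint of the peaks, in members and in the other classes. In 50 bp bins within 50 bp of the midpoint, an average of 1.23% of members held an octamer word, against 0.340% in bins beyond 300 bp. The corresponding values were 3.44% and 2.04% for SOX, 4.07% and 2.02% for KLF, 0.344% and 0.0502% for CTCF, and 1.08% and 0.724% for AP-1. At day 5 only, the values were 1.05% and 0.432% for octamer, 4.42% and 2.04% for SOX, and 2.38% and 0.978% for KLF. In that class CTCF had 0.118% and 0.0274%, and AP-1 had 2.44% near the midpoint and 0.902% beyond 300 bp. On both days SOX had 4.63% and 2.18%, and KLF 3.46% and 1.59%. In regions shared with ESCs, KLF had 4.83% and 2.99%, and AP-1 0.903% and 0.962%.

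**Figure D4:**
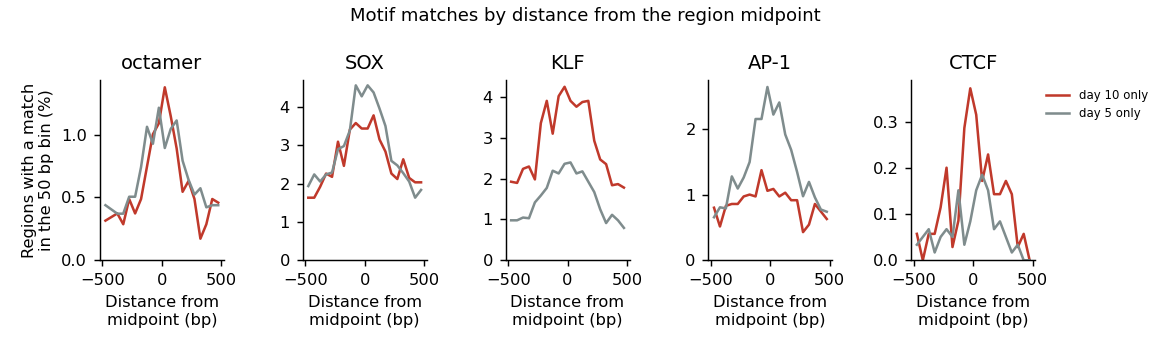
Share (%) of regions with a match in each 50 bp bin, by distance (bp) from the midpoint of the region, for day 10 only (red) and day 5 only (grey) regions. Octamer, SOX, KLF and CTCF lines of both classes rise towards the midpoint. For AP-1 the line of day 5 only regions rises to a mean of 2.44% within 50 bp against 1.08% for members.

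The motif shares followed no steady order with the strength of a member. From the weakest to the strongest quartile of -log10 q, octamer shares were 3.67%, 4.82%, 4.70% and 4.47%, and KLF shares 14.2%, 13.4%, 14.2% and 15.0%. The CTCF shares were 0.917%, 1.61%, 1.15% and 0.688% in the same order. Median width rose at each step (358, 389, 410.5 and 447.5 bp), while mean GC content fell from 46.4% to 45.0%.

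The surroundings of members differed from those of day 5 only regions. A region with a peak in MEFs alone lay within 10 kb of 30.8% of members, against 20.4% of day 5 only regions (difference 10.4 points, 8.61 to 12.3). For a region with a peak in ESCs alone these shares were 23.1% and 15.2% (difference 7.94, 6.28 to 9.62). Regions in all 4 lists lay within 10 kb of 14.9% of members and 7.50% of day 5 only regions (difference 7.38, 6.04 to 8.76). Next to regions shared with ESCs, members did not differ beyond counting error for MEF regions (28.9%; difference 1.91, -1.05 to 4.79) or for regions in all 4 lists (16.3%; difference -1.38, -3.80 to 0.898), while ESC regions were less frequent beside members (25.8%; difference -2.74, -5.57 to -0.0042), an interval that included 0 when peaks were merged at 0 bp. Among all regions outside the class counted, MEF regions lay within 10 kb of 24.6%, ESC regions of 20.8%, regions in all 4 lists of 12.1% and regions found on both days of 6.14%, the last against 8.14% of members. Another member lay within 10 kb of 5.88% of members. Another region of the same class lay within 10 kb of 7.99% of regions on both days, 5.55% at day 5 only and 2.51% of regions shared with ESCs. Regions on both days and at day 5 only outnumber members, while regions shared with ESCs are fewer. A larger class offers more such neighbours, and these shares were not adjusted for class size.

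Members were spread thinly, and few genes had several. They fell into 1507 stretches of 1 Mb, of which 616 held a single member. The stretch with the most, chr6:99000001-100000000, held 13, and the next highest 11. It covers most of Foxp1, which encodes a forkhead transcription factor, and 7 members lay within 50 kb of a Foxp1 start site. Their -log10 q ran from 1.27 to 6.09, and 6 of the 7 lay inside the gene. Around these start sites the MEF list had 30 peaks, the day 5 list 13, the day 10 list 19 and the ESC list 12.

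Plekha6 had 6 members within 50 kb of its start sites with -log10 q from 1.83 to 5.96. The day 10 list had 12 peaks there, the day 5 list 4, the MEF list 9 and the ESC list 13, so 6 of 12 day 10 peaks were members. A further 9 genes had 5 members each. They were Fyn, a Src-family kinase, Hdac4, a class IIa histone deacetylase, Igf1r, the receptor of insulin-like growth factors, the kinesin gene Kif5c, the laminin chain gene Lamc1, the ubiquitin ligase gene Pja1, the semaphorin gene Sema6d, the TEAD-family factor Tead1 and the zinc-finger gene Zbtb7c. Near Pja1, 5 of the 7 day 10 peaks were members, and the MEF, day 5 and ESC lists had 2, 2 and 1 peaks. Most of these genes are long (up to 597384 bp for Foxp1), and longer genes with more start sites offer more room within the window.

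**Figure D5:**
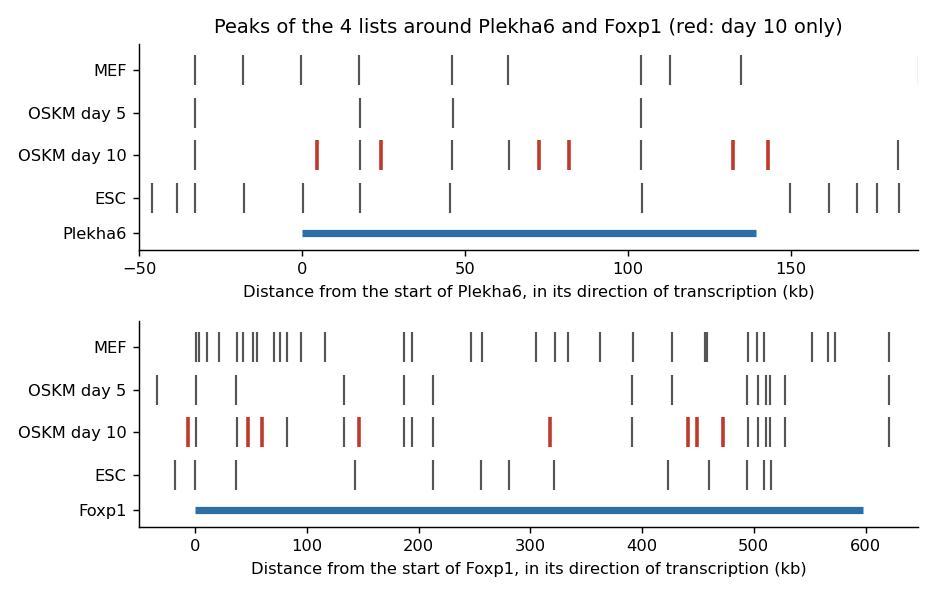
Peaks of the 4 lists by distance (kb) from the start of Plekha6 and of Foxp1 in the direction of transcription, with each mark at a peak's midpoint, members in red and the gene as a blue bar. On the map of Plekha6, 6 of 12 day 10 peaks are members, and on that of Foxp1, 8 of 22.

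Within 50 kb, 3952 of 21938 protein-coding genes (18.0%) had a member, and across 7 gene lists the share ran from 5.00% (germline) to 32.1% (Wnt). Of the pluripotency genes, 7 of 30 (23.3%) did. The strongest lay 7646 bp upstream of Klf2, a KLF-family factor of naive cells (-log10 q of 6.05, 3.40-fold), with an ESC peak 2639 bp and a MEF peak 7096 bp away. Sall4, a zinc-finger factor of ESCs, had 2, with a -log10 q of 4.12 and 1.75, at 21660 and 2940 bp. L1td1 also had 2 (1.49 and 1.80), and Dppa5a (1.99), Sall1 (2.44), Utf1 (2.54) and Zfp296 (2.80) had 1 each. The member near Dppa5a was 1187 bp from an ESC peak and 89663 bp from the nearest day 5 peak. None of the 30 had a member within 1 kb of a start site.

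Of 28 epithelial genes, 5 (17.9%) had a member within 50 kb. The member beyond the 3′ end of the keratin gene Krt8, 8253 bp from its start site and 31951 bp from that of the keratin gene Krt18, had 2.11, and was the same region for both. Grhl3, an epidermal transcription factor, had 2.92 and St14, a membrane protease gene, 2.07. Cdh1 and Epcam, epithelial adhesion genes, had none.

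Of 28 genes of the Wnt pathway, 9 (32.1%) had a member within 50 kb. The strongest lay in an intron of Tcf7l1, a repressor at Wnt target genes, with a -log10 q of 4.91 and 3.85-fold enrichment, and its nearest MEF, ESC and day 5 peaks were 1334, 3494 and 24032 bp away. Its octamer and SOX words, shown above, lay at bases 178 to 185 and 190 to 196 of the window. Ctnnb1, which encodes beta-catenin, had 2, of which the stronger (4.86) lay 1402 bp downstream of a start site. The related factors Tcf7 and Tcf7l2 had 2.75 and 1.34, the receptor gene Fzd7 1.90, and the ligand genes Wnt7b 1.86, Wnt8a 3.26, Wnt9b 2.99 and Wnt11 1.43. Within 10 kb, where 5.57% of all protein-coding genes had a member, 2 of the 28 did (7.14%).

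Fibroblast genes had members too, at 5 of 22 (22.7%). That in an intron of Prrx1, a mesenchymal homeobox factor, had a -log10 q of 3.84 and a MEF peak 799 bp away, and that 2176 bp upstream of a Tbx15 start site had 3.37. Tgfbr2, a TGF-beta receptor gene, had 2.77 and Zeb2, a repressor of epithelial genes, 1.30. The 2 members near Meox1, with a -log10 q of 1.38, were pieces of 1 named peak, as 6 members in all shared a named peak with another member. Among 24 neural genes, 4 (16.7%) had a member, near Pax7 (3.17), Lhx2 (2.40), Olig2 (1.90) and Zic1 (1.57). Among 24 genes of mesoderm, endoderm and trophoblast, 4 (16.7%) did, near Elf5 (2.61), Tfap2a (2.51), Cer1 (2.23) and Hand2 (1.90). The member near Pax7, a factor of neural crest and muscle precursors, was 127497 bp from the nearest ESC peak and 17886 bp from the nearest MEF peak. Of 20 germline genes 1 (5.00%) had a member, Tuba3b (2.49).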

How the data were processed

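ATAC-seq peak lists of 4 groups were analysed. Per the labels, the authors aligned reads to mm10 with Bowtie2 (version 2.2.0 in the submitters' processing notes, a later version in the methods), kept uniquely mapped reads above a mapping quality and dropped mitochondrial reads. The peak caller was not given in the sources used here. Each deposited list intersects the peaks of 2 libraries and gives per peak a score, a fold enrichment over background as a ratio, and -log10 q values (-log10 p values were not used). The names of all deposited day 10 peaks carry a tag of replicate 1, and 85 named peaks appear as 2 pieces with equal values, 27 members among them. Read counts were not in the lists, so depth is unknown.

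Peaks of the lists were merged at 400 bp in Python 3.11.15 with pandas 2.3.3, numpy 2.4.6 and pyfaidx 0.9.0.4. All peaks ended within the chromosomes of GRCm38, which was used for sequence, with GENCODE M21 start sites. Members, gene lists and motifs were chosen with earlier results of these data known. Shares carry 95% Wilson intervals and differences 95% Newcombe intervals, which cover counting error only. With 1 list per group no test over replicates was possible. For the example windows chromosome 18 was not used, and 1 of the listed genes with a member is not reported here by name. Functions were tested on simulated data. Named members were those with the 10 highest -log10 q and fold values, the 10 strongest within 1 kb of a protein-coding start site, the 5 widest, those of the densest 1 Mb, those near the 5 genes with most members (11 with ties) and those within 50 kb of a listed gene. The count of columns belonging to another series was 0. Alternatives changed the merging distance, the -log10 q minimum, list length by score, start sites, window, repeats and sex chromosomes.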

Additional observations from a re-analysis of the deposited data

How the results depend on the processing

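The count of 3488 members became 3685 and 3313 when peaks were merged at 0 and 1000 bp, and 2944 with a -log10 q of at least 2 in every list, of which 2365 were peaks of the 3488 and 579 were added. It was 2365 with that minimum at day 10 alone, 4987 with lists shortened to equal length by score, which included all 3488, 3412 without the sex chromosomes and 3275 without regions of at least 50% repeat. The day 10 list was the shortest (35226 peaks), so shortening the lists could only keep all 3488 and add to them. The 2365 leave out the 1123 members with a -log10 q below 2, so that count was also fixed in advance. Start site differences kept their direction and an interval clear of 0 under every alternative run. Searching whole regions, whose widths differ between classes by construction, turned several differences (in points). Against regions on both days these were KLF (-3.70), octamer (-3.88), ESRRB (-0.446), E-box (-0.109), GRHL (-2.17), GATA (-2.96), FOX (-3.51) and RFX (-0.418). Against regions shared with ESCs they were AP-1 (-4.87), octamer (-3.59), RUNX (-3.43), E-box (-8.03) and GATA (-3.12), while SOX (-13.2), KLF (-16.9) and CTCF (-2.87) came clear of 0. Windows of 40% to 50% GC, an alternative chosen after seeing the data, turned KLF against day 5 only (-2.04) and both days (-2.58), brought octamer against day 5 only clear of 0 (1.95) and CTCF against day 5 only to an interval with 0 (0.212). Beyond 5 kb of a start site, octamer against day 5 only was 1.07, clear of 0, and CpG-island-like windows against ESC-shared regions -0.451, not clear. Within 5 kb, AP-1 against both days (-0.676) and CTCF against day 5 only (0.391) were not clear of 0, and AP-1 against ESC-shared regions was (2.30). With the -log10 q minimum in every list, CTCF against ESC-shared regions was -1.09, clear of 0. Merging at 0 bp left ESC-only neighbours against ESC-shared regions at -1.64, not clear, and a 50 kb distance brought MEF-only (3.34) and all-list neighbours (-3.46) clear. The cause was not tested. Within 10 kb, 5.57% of all protein-coding genes had a member. The lists had members there at 3 pluripotency, 3 epithelial, 2 fibroblast, 2 neural, 1 mesoderm, endoderm and trophoblast, 0 germline and 2 Wnt genes. Within 100 kb, 29.8% of all protein-coding genes had a member. The same lists had members there at 9, 10, 8, 8, 7, 4 and 11 of 30, 28, 22, 24, 24, 20 and 28 genes. Counts must fall in a narrower window and rise in a wider one. No paired analysis was possible because each group has 1 list made from both of its libraries, and for the same reason leaving out a replicate was not run.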

Other observations

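The Hox genes, which pattern the body axis, were singled out after the values were seen. No share of Hox genes with a member was computed to set against the 1.15% of all protein-coding genes with one within 1 kb. Members nearest to Hoxc6 and Hoxa2 lay over a start site, with a -log10 q of 3.52 and 1.47, and that nearest to Hoxd3 lay 555 bp from one, with 4.98. Chromosome X held 2.15% of members and 2.32% of all regions, against 4.65% of day 5 only regions (difference -2.50 percentage points, 95% Newcombe interval -3.21 to -1.76), 2.48% of regions on both days (-0.333, -0.916 to 0.303) and 1.34% of regions shared by day 10 and ESCs (0.815, -0.0878 to 1.55).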
